A study of Homo sapiens with 41 samples.

Results

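RNA polymerase II (PolII) was mapped by chromatin immunoprecipitation (ChIP-seq) in MDA-MB-231 cells treated with the HDAC6 inhibitor Nexturastat A and in control cells. These 4 libraries, 2 labelled Ctrl and 2 labelled Nexturastat A with the Rpb1 CTD antibody, were taken by sample title from the 41 samples of a study on HDAC6 and chromatin in triple-negative breast cancer, 32 of which had a peak list. MDA-MB-231 is an established triple-negative breast cancer line. Treated cells received 5 µM of inhibitor over 2 days, the antibody was the mouse monoclonal 4H8 against the C-terminal domain of the largest PolII subunit, and 100000 cells went into each library. All 4 libraries came from the parental line with no hairpin, and the labels name no vehicle for the controls. The labels do not say that replicates were separate cultures, so the p-values measure no more than the spread between the 2 lists of a group, and that spread may be technical. The deposited files are peak lists without read counts, so the depth of each library is unknown.

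PolII transcribes protein-coding genes. It gathers at the gene start, commonly pauses a short way downstream, and is then released to elongate through the gene body and past the polyadenylation site before it leaves the DNA. The 4H8 antibody binds the C-terminal repeat tail of Rpb1, so it reads polymerase at starts as well as in bodies. A narrow peak caller draws a peak over a body only where the polymerase signal there stands above its local background, and the share of a body under peaks is therefore a thresholded measure, not an amount of polymerase. HDAC6 is a mainly cytoplasmic deacetylase whose best known substrate is tubulin, and Nexturastat A is a hydroxamate made to inhibit it. The comparison asks where polymerase lay after inhibition of HDAC6.

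How the lists were made bears on every comparison. The peaks of replicate 1 of both groups had been scored on the q-value and those of replicate 2 on the p-value, and the numbering in the names showed that 100% of the first kind and 88.5% (control 2) and 75.5% (inhibitor 2) of the second kind of calls were in the lists. Lists with the same number were more alike than lists of the same treatment: the Pearson correlation of body coverage across 2690 genes was 0.767 between control 1 and inhibitor 1 and 0.692 between control 2 and inhibitor 2, against 0.291 between the controls and 0.276 between the inhibitor lists (a description, since the genes of a list share its depth and threshold). Values are therefore given for each list and also within each replicate number (number 1 or 2). With 2 lists against 2, the exact two-sided permutation test cannot give a p below 0.333. The labelled cell type was checked on markers: all 8 mesenchymal triple-negative markers, such as VIM, AXL and CD44, had a PolII peak at their start in all 4 lists, and all 5 leukocyte markers had none. In longer lists of such genes, 16 of 20 mesenchymal markers had one in all 4 lists (SPARC, TWIST1, ANXA1 and CDH2 did not), while 2 of 16 leukocyte markers, CD8A and CD68, had one in all 4 and 11 had none in any. Of 5 luminal markers, ERBB2 and FOXA1 had a start peak in all 4 lists and the estrogen receptor gene ESR1 had none. Of 5 epithelial markers KRT18 and KRT19 had one in all 4 lists. The neuron gene SYT1 had a start peak in all 4 lists, while 1, 5, 1 and 3 of 5 neuron markers had one in control 1, control 2, inhibitor 1 and inhibitor 2. The part of this difference between numbers in other results was not tested.

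PolII peaks covered more of the genome in both inhibitor lists than in both control lists, and most of the difference in mean length, 9.40 of 11.8 Mb, lay inside genes away from their starts. Control 1 held 22926 peaks over 26.1 Mb, control 2 held 27786 over 35.5 Mb, inhibitor 1 held 31198 over 47.9 Mb and inhibitor 2 held 25373 over 37.4 Mb. The groups did not overlap in covered length, but did in number of peaks. The covered length was 30.8 ± 6.68 Mb in control and 42.6 ± 7.37 Mb with the inhibitor (mean ± SD, n = 2 each; exact permutation p = 0.333, the smallest possible). The inhibitor list covered 1.83 times as much as its control under number 1, but only 1.05 times as much under number 2. The difference of 11.8 Mb was 4.78 Mb with peaks of a deposited -log10 q of at least 5, 7.102 Mb without control 1 and 6.61 Mb without inhibitor 1. Such strong peaks numbered 11469 and 17624 in control and 11499 and 15944 with the inhibitor, so that they were set by number.

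Inside genes, more than 1 kb from any start, peaks covered 10.96 and 7.69 Mb in control 1 and 2 and 25.2 and 12.2 Mb in inhibitor 1 and 2. Both inhibitor lists were above both controls, by 2.30 times under number 1 and 1.59 times under number 2 (9.33 ± 2.31 against 18.7 ± 9.19 Mb; n = 2 each; exact permutation p = 0.333). Within 1 kb of starts the order followed the replicate number instead: 11.3 Mb in control 1, 18.5 Mb in control 2, 13.7 Mb in inhibitor 1 and 18.2 Mb in inhibitor 2. Outside genes peaks covered 3.799, 9.32, 8.91 and 7.002 Mb in the same order, with the groups overlapping. The number of gene starts under a peak was also set by number, at 11519 and 13590 in the controls and 11804 and 13547 with the inhibitor.

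**Figure D1:**
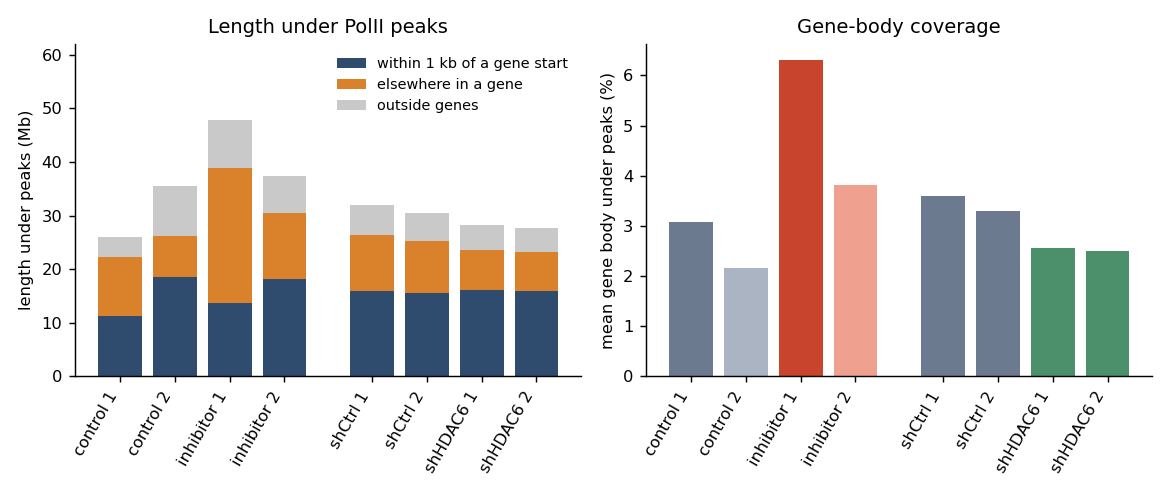
Left, length under PolII peaks (Mb) in each of the 4 lists and, for comparison, in the 4 lists of the hairpin lines, split by place; right, mean share of gene bodies under peaks (%), each bar being 1 list. The part elsewhere in a gene is 25.2 and 12.2 Mb with the inhibitor against 10.96 and 7.69 Mb in control, and mean body coverage is 6.31 and 3.82% against 3.08 and 2.15%.

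Wide peaks were more frequent in both inhibitor lists. Peaks of at least 3 kb made up 5.10% and 4.51% of the control lists and 9.37% and 7.72% of the inhibitor lists (1.84 and 1.71 times within numbers 1 and 2; exact permutation p = 0.333, n = 2 each). The difference of 3.74 points was 5.71 with peaks of -log10 q of at least 5. Peaks of at least 5 kb numbered 400 and 175 in control and 1392 and 493 with the inhibitor. Those of at least 10 kb numbered 100 and 17 in control and 453 and 74 with the inhibitor, so that here control 1 exceeded inhibitor 2 and the groups overlapped. The widest peak was 58397 bp in control 1, 15341 bp in control 2, 84250 bp in inhibitor 1 and 36487 bp in inhibitor 2. The median peak width, 772 and 1048 bp in control against 902 and 1183 bp with the inhibitor, differed more between numbers than between treatments (exact permutation p = 0.667, n = 2 each).

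Gene bodies, taken from 1 kb past the start to the gene end in the 15642 genes where this was at least 5 kb, were on average 3.08% (control 1), 2.15% (control 2), 6.31% (inhibitor 1) and 3.82% (inhibitor 2) under peaks. Both inhibitor lists lay above both controls, 2.05 times under number 1 and 1.77 times under number 2 (2.62 ± 0.659 against 5.07 ± 1.76%; n = 2 each; exact permutation p = 0.333). The mean was higher under both numbers on each of the 23 chromosomes measured. The difference of 2.45 points was 1.15 with peaks of -log10 q of at least 5 (1.52 against 2.67%), 1.20 without inhibitor 1 and 3.69 without inhibitor 2. Genes with at least 50% of the body under peaks numbered 224 and 53 in control and 645 and 245 with the inhibitor. The 5 kb past the gene end were measured in 5143 genes with a listed start and a start peak in all 4 lists. No other protein-coding gene lay in that stretch. There peaks covered 2.69 and 1.77% in control and 7.64 and 2.79% with the inhibitor (2.84 and 1.57 times within numbers, exact permutation p = 0.333, n = 2 each). That difference of 2.98 points was 0.555 without inhibitor 1 and 5.41 without inhibitor 2.

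Along 5263 genes of at least 25 kb with a listed start and a start peak in all 4 lists, the lists parted behind the start. That choice of genes in part fixes the likeness at the start. At the start itself 89.7, 94.9, 90.3 and 95.0% of genes were under a peak in control 1, control 2, inhibitor 1 and inhibitor 2. At 3 kb downstream the shares were 3.63, 2.07, 7.03 and 3.40%, and at 6 kb 2.45, 1.03, 7.07 and 1.84%. The inhibitor list was above the control of its own number at both distances, but inhibitor 2 lay below control 1. Nearer the start, at 1 kb, the shares were 23.7, 35.7, 29.7 and 37.5%, with inhibitor 2 the highest. The gene end was measured in 3444 genes with a listed start and a start peak in all 4 lists. No other protein-coding gene lay in the 10 kb past their ends. At the end the shares were 4.12, 0.726, 7.40 and 1.71%, and 1 kb past it 2.76, 0.871, 9.03 and 2.09%, with the same order. The share was higher 1 kb past the end than at the end in each list but control 1.

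**Figure D2:**
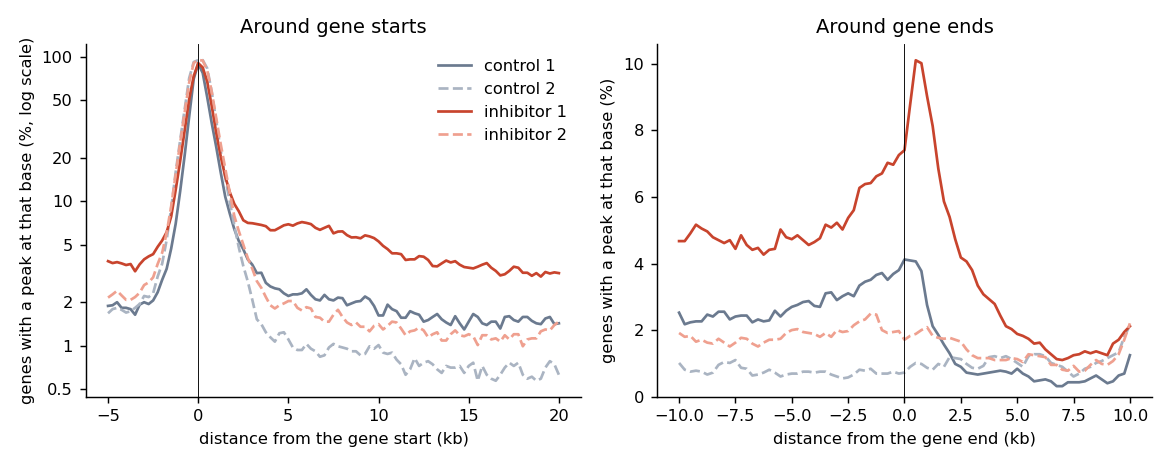
Share of genes with a PolII peak at each base (%) against distance from the gene start (left, log y axis, 5263 genes) and from the gene end (right, linear y axis, 3444 genes), 1 line per list. All these genes were chosen for a start peak in all 4 lists. The 4 lines are highest at the start. At 3, 6 and 10 kb downstream each inhibitor line is above the control line of its own number and inhibitor 2 is below control 1, but inhibitor 2 lies below control 2 at 500 bp past the start (80.6 against 83.1%) and at 4 kb past the end (1.10 against 1.22%).

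Short genes showed the difference most often. Among genes with a start peak in all 4 lists, the mean coverage of bodies of 5 to 10 kb was 13.3 and 8.49% in control and 24.6 and 16.6% with the inhibitor (1168 genes), and for bodies of 10 to 20 kb it was 8.23 and 4.25% against 16.8 and 8.96% (1749 genes). In these 2 classes the groups did not overlap. For bodies of 20 to 50 kb it was 3.66 and 1.68% against 7.90 and 3.45% (3003 genes), and for those of at least 100 kb 0.732 and 0.474% against 1.81 and 0.668% (1931 genes). In these longer classes inhibitor 2 lay below control 1. The share of genes whose coverage was higher in both inhibitor lists went from 18.8% at 5 to 10 kb to 12.3% at 100 kb and above.

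Gene by gene, body coverage was higher in both inhibitor lists than in both control lists in 1567 of 15642 genes (10%), and lower in both in 165 (1.05%). Of the 1567, the mean difference was at least 10 percentage points in 519 and under 1 point in 321. Of the 165 it was at least 10 points in 2 and under 1 point in 111. At least 50% of the body was covered in both inhibitor lists and in neither control list in 51 genes, and the reverse held for 0. The linear model fitted across genes with limma found no single gene past an adjusted p of 0.05 (0% of 2690 genes with a mean coverage of at least 5%; 25 higher and 0 lower at an unadjusted p under 0.05; smallest adjusted p = 0.913). With each list centred on its median, the same fit had 0 genes higher and 5 lower at an unadjusted p under 0.05, and 0 after adjustment. No gene is therefore called changed, and the genes below are described by their values. With peaks of a deposited -log10 q of at least 5 only, 816 genes were higher in both inhibitor lists.

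SLC7A5 on chromosome 16 (chr16:87830023-87869507, GRCh38), which codes for the large neutral amino acid transporter LAT1, showed the largest difference of the genes with a body of at least 10 kb. Its body was under peaks over 8.77% in control 1, 38.9% in control 2, 100% in inhibitor 1 and 78.5% in inhibitor 2 (limma difference 65.4 ± 27.3 points, SE; adjusted p = 0.913). Both inhibitor values lay well above both controls. NOP53 (chr19:47745546-47757058), a ribosome biogenesis factor, had 6.12, 7.66, 83.5 and 60.002% in the same order, and its 2 controls lay close together. MYBBP1A, a nucleolar MYB-binding protein, had 31.0, 3.33, 91.1 and 66.5%. SERBP1 (chr1:67407810-67430402), an mRNA- and ribosome-binding protein, had 31.0, 11.3, 83.9 and 80.4%. These genes shared a body mostly covered in both inhibitor lists and under 40% covered in both controls.

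The next in order were HERPUD1, an endoplasmic reticulum stress gene, and PRMT1, the main arginine methyltransferase that makes asymmetric dimethylarginine. HERPUD1 (chr16:56932142-56944864) had 30.0, 2.46, 100 and 54.2%, and PRMT1 had 34.1, 8.43, 89.1 and 67.7%. GRK6, a G protein-coupled receptor kinase, had 11.5, 34.8, 100 and 58.0%, and the mitochondrial phosphatase PGAM5 9.89, 17.2, 77.1 and 60.8%. In all 4 genes the controls stayed under 35% and the inhibitor lists above 50%. MARS1, the cytosolic methionyl-tRNA synthetase, had 19.2, 17.3, 92.4 and 53.5%, and SRRM2, a nuclear speckle scaffold, 48.2, 13.1, 91.6 and 78.8%. VPS4A (chr16:69311350-69326939), an ATPase of membrane scission, had 0, 2.53, 60.6 and 50.03%, so that its body was all but bare in these 2 controls. In the 2 lists of the hairpin control line, which received no inhibitor, it was 46.5 and 31.1%. SLC1A5, the glutamine transporter ASCT2, had 36.2, 30.6, 95.4 and 79.3%. All 12 genes had a start peak in all 4 lists, as did 91.0% of the 1567 and 61.8% of all 15642 genes with a measured body. In 6 of the 12 that peak was wider in both inhibitor lists. This held for 28.5% of the 1567 and for 14.9% of the 11001 genes with a start peak in all 4 lists. A start peak that runs more than 1 kb into the gene is itself body coverage, so the 2 measures are not separate. The limma adjusted p of body coverage was 0.913 for each of the 12 genes. Among peaks of -log10 q of at least 5, the mean difference was 0 for PGAM5, 0.809 points for VPS4A, 6.12 for SERBP1, 17.3 for NOP53, 22.2 for PRMT1 and 37.8 for MYBBP1A. With lists of equal length it was 26.5 for NOP53.

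**Figure D3:**
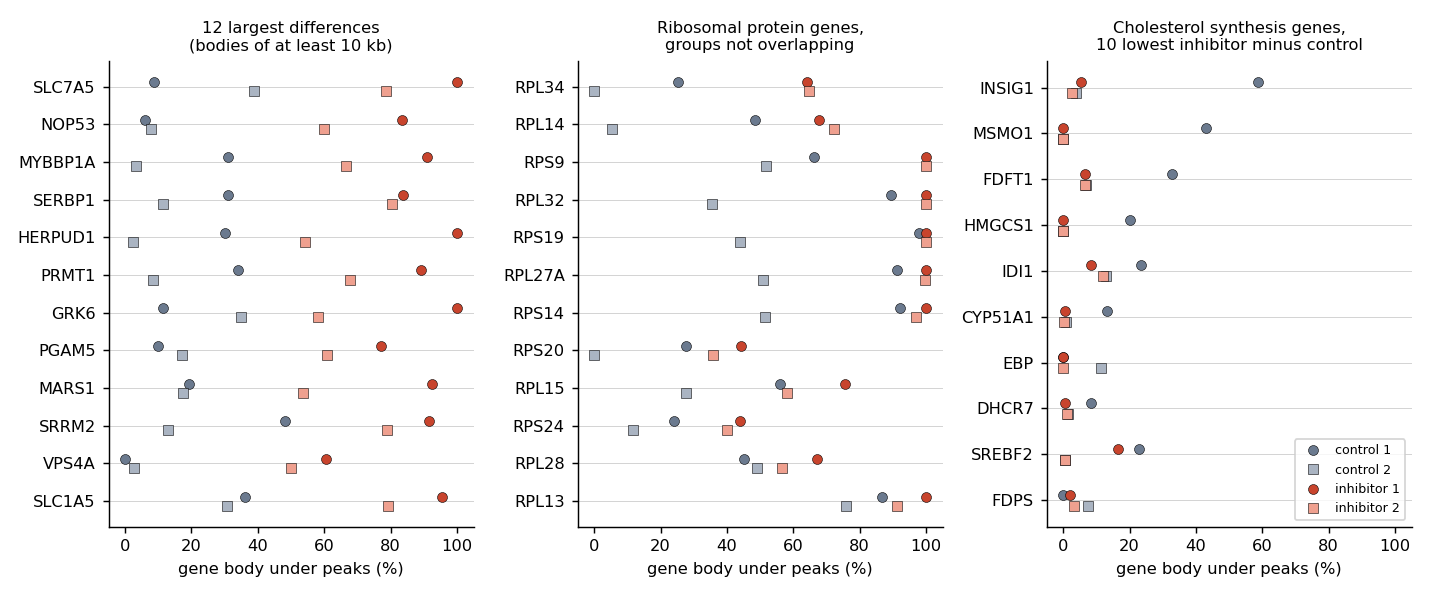
Share of the gene body under PolII peaks (%) for named genes, 1 symbol per list (circles, number 1; squares, number 2; grey, control; red, inhibitor). The middle panel shows 12 of the 13 ribosomal protein genes with higher coverage. In the left and middle panels both red symbols lie right of both grey ones, by the choice of genes; in the right panel, where genes were chosen by mean difference, the high value is control 1 in most genes.

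No gene met the same rule in the other direction. The genes of lowest mean difference, chosen after their values were seen, included RBM15, an RNA-binding adaptor of the m6A writer, at 25.4, 22.9, 3.46 and 19.7%, and NUAK2, a stress kinase, at 17.9, 1.59, 0 and 0%. The orphan nuclear receptor NR4A1, an immediate early gene, had 28.8 and 16.6% in control and 10.5 and 16.4% with the inhibitor. The 3 genes were lower in both inhibitor lists, but in each of them inhibitor 2 came within 4 points of control 2, and the value of NUAK2 rested on control 1.

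The gene of the drug target, HDAC6 (chrX:48801398-48824982) had a start peak in all 4 lists, 498 and 2043 bp wide in control and 360 and 1910 bp with the inhibitor. Its body was covered over 0.545, 1.73, 0.421 and 1.46%. Both inhibitor widths were below the control of the same number, and the groups overlapped. An enzyme inhibitor is not meant to remove the gene's transcription, so this is no check of the treatment.

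Genes for cytosolic ribosomal proteins, the structural parts of the ribosome, held many genes with more body coverage under the inhibitor. All 50 listed genes had a start peak in all 4 lists. Of the 22 with a measured body, 13 (59.1%) had higher coverage in both inhibitor lists and 0 had lower. Over all genes these shares were 10% and 1.05%. In genes with bodies of 5 to 10 kb and a start peak in all 4 lists they were 18.8% and 0.685%. The 22 genes had a median difference of 26.0 points, against a median of 0 over all genes. The mean coverage of the 22 bodies was 70.0% in control 1, 33.7% in control 2, 84.8% in inhibitor 1 and 73.1% in inhibitor 2. The count was 13 of 22 also with peaks of -log10 q of at least 5 and with lists cut to equal length, both chosen after seeing the data.

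RPL34, of the large subunit, had 25.3% of its body covered in control 1, 0% in control 2, 64.0% in inhibitor 1 and 64.6% in inhibitor 2. Its start peak was 1540 and 1023 bp wide in control and 6971 and 7120 bp with the inhibitor. The 2 inhibitor values nearly coincided in both measures, and the difference in coverage of 51.7 points was 31.2 with peaks of -log10 q of at least 5. RPL14, also of the large subunit, had 48.5, 5.39, 67.9 and 72.2%, a difference of 43.1 points that was 70.04 with those peaks. RPL32 had 89.5 and 35.6% against 100 and 100%, with start peaks of 3599 and 3410 bp against 12060 and 12626 bp. RPL3 was covered over 100% in each list, so that it could not go higher.

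The start peak was wider in both inhibitor lists in 34 of the 50 genes and narrower in 0. Over all 11001 genes with a start peak in all 4 lists it was wider in 1635 (14.9%) and narrower in 344 (3.13%). The median width of the 50 start peaks was 5897 bp in control 1, 3309 bp in control 2, 8068 bp in inhibitor 1 and 7797 bp in inhibitor 2. The control medians lay further apart than the inhibitor medians. It was wider in 47 of 50 under number 1 and in 46 of 50 under number 2. The rank of the start peak by fold enrichment did not follow: its median percentile was 82.8 and 81.9 in control and 97.1 and 61.9 with the inhibitor, higher in 47 of 50 genes under number 1 and in 13 of 50 under number 2. Ribosomal protein genes are short and have many near-identical processed copies elsewhere, and how such reads were placed is not given in the sources used here, so single members are uncertain.

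The promoter of RPL32, whose start peak was more than 12 kb wide in both inhibitor lists, is shown because the ETS letters recur in promoters of the list. The 250 bases before its outermost start (RefSeq, GRCh38.p14, chr3:12841583-12841832, minus strand) hold CCGGAAG, in capitals, beginning 34 bases before the start.
RPL32: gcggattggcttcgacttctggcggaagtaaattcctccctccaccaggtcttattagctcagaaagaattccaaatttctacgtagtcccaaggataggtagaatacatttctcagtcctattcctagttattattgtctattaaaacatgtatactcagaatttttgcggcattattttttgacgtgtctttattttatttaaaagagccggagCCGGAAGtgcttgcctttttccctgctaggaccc
CCGGAAG, on either strand, occurred in 16 of 52 listed promoters of the ribosomal protein genes (30.8%) and in 8.52% of the 35116 promoters of this length in the table. A match of letters is a description and not a bound site.

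Of 22 genes of cholesterol synthesis with a body, 4 had lower coverage in both inhibitor lists and 1 had higher, against 1.05% lower and 10% higher over all genes. The lower values rested on control 1. CYP51A1, lanosterol demethylase, had 13.1 and 0.853% in control and 0.492 and 0.141% with the inhibitor, and DHCR7, dehydrocholesterol reductase, had 8.31 and 1.45% against 0.549 and 1.30%. IDI1, isopentenyl diphosphate isomerase, had 23.5 and 12.8% against 8.36 and 12.1%. FDFT1, squalene synthase, with an inferred start, had 32.8 and 6.86% against 6.67 and 6.64%. In each of the 4 genes control 1 was the high value, and control 2 lay within 1 point of inhibitor 2. The higher one was MVD, mevalonate diphosphate decarboxylase, at 1.005, 1.10, 5.15 and 1.56%. The mean of the list was 16.9, 3.10, 11.2 and 2.61% in control 1, control 2, inhibitor 1 and inhibitor 2, lower with the inhibitor under both numbers. MSMO1, methylsterol monooxygenase, had 43.0% in control 1 and 0% in the other lists, and HMGCS1, HMG-CoA synthase, had 20.1% in control 1 and 0% in the others. INSIG1, which holds the SREBP precursor in the endoplasmic reticulum, had 58.6, 3.85, 5.33 and 2.78%. With peaks of -log10 q of at least 5 the mean difference was -1.14 points for CYP51A1 (-6.64 with all peaks), -4.77 for FDFT1 (-13.2) and -2.85 for IDI1 (-7.94).

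At the starts, 7 of the 21 cholesterol genes with a peak in all 4 lists had a narrower peak in both inhibitor lists and 1, the sterol regulator SREBF1, had a wider one, at 2847, 3143, 11216 and 3151 bp. Over all genes 3.13% were narrower and 14.9% wider. CYP51A1 had 2304 and 1901 bp in control and 1861 and 1892 bp with the inhibitor. MSMO1 had 2046 and 1551 bp against 1394 and 1452 bp, and HMGCS1 1435 and 888 bp against 563 and 851 bp. These differences were larger under number 1 than under number 2. Sterol genes are commonly driven by SREBP together with NF-Y, a factor that binds CCAAT. The promoters of MSMO1 and INSIG1 are shown since their bodies had the steepest drop from control 1 (RefSeq, GRCh38.p14; MSMO1 chr4:165327419-165327668 and INSIG1 chr7:155297628-155297877, both plus strand). Capitals mark CCAAT, or ATTGG where it is on the opposite strand.
MSMO1: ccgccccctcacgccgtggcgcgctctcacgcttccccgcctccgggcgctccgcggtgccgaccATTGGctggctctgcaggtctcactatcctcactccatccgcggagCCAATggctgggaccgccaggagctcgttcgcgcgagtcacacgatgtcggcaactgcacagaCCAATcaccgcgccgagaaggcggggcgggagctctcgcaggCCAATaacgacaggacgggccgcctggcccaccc
INSIG1: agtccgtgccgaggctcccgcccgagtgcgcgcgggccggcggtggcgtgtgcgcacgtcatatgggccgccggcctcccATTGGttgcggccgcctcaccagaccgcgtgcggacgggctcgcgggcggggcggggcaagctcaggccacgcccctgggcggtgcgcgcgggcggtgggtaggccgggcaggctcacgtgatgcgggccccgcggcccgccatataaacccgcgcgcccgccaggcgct
MSMO1 held 4 matches and INSIG1 1. CCAAT occurred on either strand in 17 of 23 listed promoters of the cholesterol genes (73.9%) against 32.0% of all promoters, and the GC box GGGCGG in 21 of 23 (91.3%) against 42.6%.

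**Figure D4:**
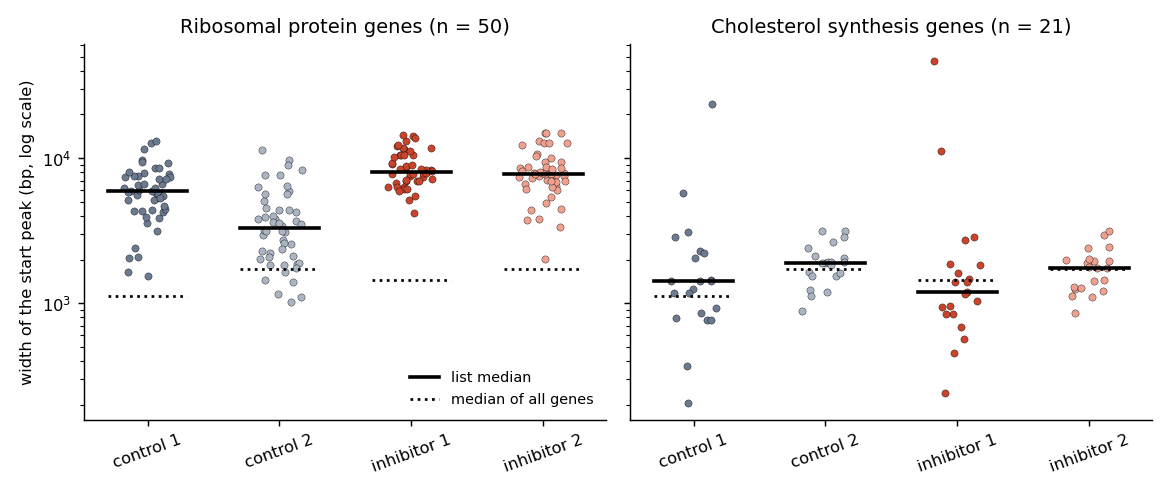
Width of the PolII peak at the gene start (bp, log scale) for 50 ribosomal protein genes and 21 cholesterol synthesis genes with a start peak in all 4 lists, 1 point per gene and list; solid bars are list medians and dotted bars the medians of all 11001 genes. The ribosomal medians are 8068 and 7797 bp with the inhibitor against 5897 and 3309 bp in control, while the cholesterol medians stay near those of all genes.

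In the other listed groups the share of genes with higher coverage in both inhibitor lists ran from 0 to 26.7%, against 10% over all genes. In genes with a start peak in all 4 lists, it was 12.1 to 18.8% across the classes of body length. Of 15 p53 targets with a body, 4 were higher (26.7%) and 0 lower. The cell cycle inhibitor CDKN1A (chr6:36676463-36687332) had 24.8 and 30.7% in control and 92.3 and 42.8% with the inhibitor, and the stress gene SESN2 had 0 and 7.21% against 29.0 and 47.5%. MDM2, the p53 ubiquitin ligase, had 10.7 and 0.925% against 16.8 and 14.5%. Of 20 heat shock and chaperone genes, 4 were higher (20%) and 0 lower. The chaperonin subunit CCT4 had 24.6, 2.49, 75.2 and 37.2%, and the heat shock factor HSF1, with an inferred start, 0.194, 0.931, 28.0 and 29.3%. The endoplasmic reticulum chaperone HSPA5 overlapped, with 100, 7.63, 100 and 99.1%. With peaks of -log10 q of at least 5 the difference went from 28.1 to 2.09 points for HSF1 (13.3 with lists of equal length), from 34.6 to 11.4 for SESN2, from 42.7 to 20.9 for CCT4 and from 9.80 to 2.56 for MDM2.

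Among deacetylases, acetyltransferases and acetyl readers, 7 of 31 were higher and 0 lower. HDAC10, a polyamine deacetylase related to HDAC6, had 12.4 and 38.6% against 67.5 and 78.7%, the largest difference of the list. HDAC7, a class IIa deacetylase, had 2.39 and 2.45% against 11.6 and 4.78%, and BRD9, a bromodomain subunit of a remodelling complex, 2.28 and 1.279% against 9.65 and 6.94%. The others were HDAC2, HDAC5, SIRT5 and EP300. Among subunits of PolII and elongation factors, 7 of 28 were higher and 1, POLR2F, was lower. POLR2H, a small shared polymerase subunit, had 26.7 and 25.5% against 100 and 35.3%. SUPT5H, which takes part in pausing and elongation, had 1.27 and 0% against 11.8 and 2.61%, and NELFB, of the negative elongation factor, 3.47 and 0% against 6.86 and 6.23%. POLR2A, which codes for the subunit the antibody binds, had 26.7 and 5.76% against 57.7 and 16.5%, and its groups overlapped. With peaks of -log10 q of at least 5 the difference was 0 for SUPT5H and NELFB, 0.804 points for BRD9 and 2.04 for HDAC7. With lists of equal length it was -1.73 for NELFB, 1.79 for BRD9 and 1.698 for HDAC7.

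Of 23 autophagy, ubiquitin and aggresome genes, 6 were higher and 0 lower. The lysosomal protease CTSD had 14.2 and 11.1% against 49.1 and 17.2%, and the autophagosome protein gene MAP1LC3B 0 and 15.4% against 19.5 and 17.2%. Of 16 glycolysis genes 4 were higher and 0 lower, with LDHB, a lactate dehydrogenase, at 8.17 and 1.27% against 37.8 and 9.15% and PGK1, phosphoglycerate kinase, at 0.399 and 0.108% against 12.5 and 5.23%. In the cell cycle list 2 of 20 (10%) were higher, and CCND1, cyclin D1, had 42.3 and 32.3% against 95.3 and 72.3%. Tubulin, cilium and motor genes, which include the HDAC6 substrate, had 4 of 18 higher and 1 lower, DYNLL1. DCTN2, a dynactin subunit, had 1.12 and 0% against 22.3 and 3.33%, and TUBA1C, an alpha-tubulin, 22.9 and 11.8% against 25.8 and 23.6%. With peaks of -log10 q of at least 5 the difference was 1.005 points for MAP1LC3B, 0.933 for PGK1, 9.80 for LDHB, 1.67 for DCTN2 and 4.198 for TUBA1C.

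Of YAP and TEAD targets 3 of 14 were higher (21.4%), among them the LIM protein gene AJUBA at 27.0 and 10.7% against 61.1 and 33.7%, and 1, LATS2, was lower. In the immediate early list 1 of 11 was higher, FOSB, at 21.2 and 21.2% against 48.8 and 30.4%, and 1 was lower, NR4A1. The interferon and antigen presentation list had 1 of 17 higher, TAP2, a peptide transporter, at 0 and 0.0314% against 3.75 and 1.70%, and the NF-kB list 0 of 15 higher and 1 lower, REL. The leukocyte list had 0 of 10 in either direction. Genes of DNA repair had 2 of 20 higher, those of acetyl-CoA supply 1 of 19 higher and 1 lower, anaphase-promoting complex genes 2 of 15 higher, mesenchymal markers 1 of 18, epithelial and luminal markers 2 of 12, and neuron markers 1 of 14. These shares lie on both sides of the 10% over all genes. The difference was 4.37 points for FOSB with peaks of -log10 q of at least 5, and 16.5 for AJUBA, 1.03 for TAP2, -0.139 for REL and 0.0200 for LATS2, whose sign turned. With lists of equal length it was 4.37 for FOSB and 11.5 for AJUBA.

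The width of the start peak also depended on the replicate number. The medians over 11001 genes were 1121 and 1725 bp in control and 1441 and 1715 bp with the inhibitor. The start peak was wider with the inhibitor in 77.9% of genes under number 1 and in 44.1% under number 2. The limma fit of log2 width called none (0% of 11001 genes, smallest adjusted p = 0.9998). At an unadjusted p under 0.05 it had 157 wider and 6 narrower, and 101 and 28 with each list centred on its median. ASNS, asparagine synthetase, a gene of the amino acid response, had start peaks of 416 and 1329 bp in control and 22469 and 2153 bp with the inhibitor, and 0, 1.92, 100 and 8.84% of its body covered. SLC35B2, a Golgi sulfate donor transporter, had 423 and 1764 bp against 12480 and 7391 bp, and the BH3-only apoptosis gene BBC3 302 and 2156 bp against 11959 and 2794 bp. ARHGEF2, a microtubule-bound guanine nucleotide exchange factor, had 434 and 1421 bp against 43814 and 3750 bp. In ASNS, BBC3 and ARHGEF2 the large value was that of inhibitor 1 alone. The peak shared by the starts of ZBTB11 and of LOC124906262, on the opposite strand, had 2052 and 1391 bp against 11799 and 12372 bp. Both inhibitor lists were alike. The body of ZBTB11 was under 2% covered in each list, and that of LOC124906262 had 29.7 and 19.2% in control and 41.3 and 41.1% with the inhibitor.

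Narrower start peaks were found at RBBP9, with 1377 and 1253 bp in control and 521 and 576 bp with the inhibitor, and at the interleukin 12 subunit gene IL12A, with 862 and 1227 bp against 317 and 638 bp. ATP5F1D, a subunit of the ATP synthase, with an inferred start, had 3834 and 6508 bp against 928 and 1343 bp. TYW1, a tRNA-modifying enzyme, had 2493 and 2701 bp against 781 and 1577 bp. In these 4 genes the groups were well apart. The widest control start peaks were mostly wide in the lists of number 1: HIF1A, the hypoxia factor, had 58397 and 60664 bp in control 1 and inhibitor 1, and 1774 and 1636 bp in control 2 and inhibitor 2. NPM1, nucleophosmin, had 28311 and 2864 bp in control and 29173 and 15213 bp with the inhibitor, so that its second inhibitor list was wide as well. The shared peak of CD151, a tetraspanin, was wide in each list, at 13404, 15341, 18090 and 14879 bp.

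Few gene starts lost or gained a peak. Of 19974 genes, 8 (0.0401%) had a start peak in both control lists and in no inhibitor list, and 58 (0.29%) had one in both inhibitor lists and in no control list. The balance turned round with peaks of -log10 q of at least 5, where 33 starts were lost and 11 gained. With lists of equal length 37 were gained. The lost peaks were narrow, with a median of 251 bp in control 1 and 507 bp in control 2. They were at ZNF486, ZNF93 and ZNF737, 3 KRAB zinc finger genes of the 19p12 cluster, at the zinc finger gene ZNF883, at MAP1LC3C, of the autophagosome protein family, at the sodium leak channel NALCN, at BTN3A1, a butyrophilin that presents phosphoantigens to gamma-delta T cells, and at LOC124904958. For the last of these both control peaks also reached a peak of the inhibitor lists, so that PolII peaks lay beside that start with the inhibitor too. No body coverage was measured in the other 7.

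ZNF486 had a start peak of 192 bp in control 1 and 783 bp in control 2, ZNF93 of 196 and 592 bp, and ZNF737 of 253 and 395 bp. Their rank by fold enrichment within the list was at the 53.9 and 34.5th percentile for ZNF486, 48.6 and 35.7 for ZNF93, and 59.2 and 1.78 for ZNF737, so that they were not among the strong peaks. An ATAC peak, the mark of open chromatin, lay at each of the 3 starts in all 3 control and all 3 inhibitor lists. KRAB zinc finger genes of this cluster are related copies that commonly silence mobile elements. Whether reads of one copy were placed at another was not tested. The promoters are shown to let the likeness be seen (RefSeq, GRCh38.p14; ZNF486 chr19:20166964-20167213 and ZNF93 chr19:19900696-19900945, plus strand; ZNF737 chr19:20565782-20566031, minus strand). Each holds CCAAT at a pair of places, in capitals, beginning 86 and 57 bases before the start in ZNF486 and ZNF737 and 84 and 56 in ZNF93.
ZNF486: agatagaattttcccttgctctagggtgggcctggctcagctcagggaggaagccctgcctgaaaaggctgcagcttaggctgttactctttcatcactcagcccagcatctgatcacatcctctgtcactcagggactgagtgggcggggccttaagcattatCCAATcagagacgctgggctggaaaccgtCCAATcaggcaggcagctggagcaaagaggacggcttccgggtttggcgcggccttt
ZNF93: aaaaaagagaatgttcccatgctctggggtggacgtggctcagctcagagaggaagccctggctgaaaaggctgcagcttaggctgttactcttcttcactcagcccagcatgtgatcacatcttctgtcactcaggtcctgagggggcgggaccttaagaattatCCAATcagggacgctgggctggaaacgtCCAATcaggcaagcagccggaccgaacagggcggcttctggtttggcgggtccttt
ZNF737: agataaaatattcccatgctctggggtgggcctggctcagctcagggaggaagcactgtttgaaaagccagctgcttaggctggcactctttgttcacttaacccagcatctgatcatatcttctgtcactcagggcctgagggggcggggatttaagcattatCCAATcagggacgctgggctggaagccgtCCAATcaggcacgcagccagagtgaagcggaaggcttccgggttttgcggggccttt
ZNF486 and ZNF737 were 86.8% identical over 250 aligned columns, ZNF486 and ZNF93 87.0% over 253, and ZNF737 and ZNF93 83.4%. Over the 351 pairs of 27 promoters of the cluster the median was 76.9% and the highest 92%. CCAAT, on either strand, occurred in 27 of 28 listed promoters of the cluster, against 32.0% of all 35116. Of the 34 genes of the cluster found in the table, 3 lost the start peak, 6 had one in all 4 lists and 7 in none. The number of cluster starts with a peak was 14 and 26 in control and 10 and 18 with the inhibitor, lower under both numbers but with the groups overlapping.

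The peaks at the 58 gained starts had median widths of 1096 bp in inhibitor 1 and 1222 bp in inhibitor 2, below the 1441 and 1715 bp of starts with a peak in all 4 lists. They ranked low by fold enrichment, with median percentiles of 29.7 and 14.2. In 14 of the 58 at least 1 of the inhibitor peaks also reached a control peak elsewhere. A start was listed for 36 of the 58, against 15812 of all 19974 genes. For the other 22 both ends were used or the start was inferred from peaks. The inhibitor lists were among those used to infer it, so a gained call there is partly set by them. Open chromatin by ATAC in each of the 3 control libraries was found at 3 of the 58, and at 86.8% of the starts with PolII in all 4 lists. At MAMDC4, PGAM2 and TAS1R3 the peak was a stretch of several kb, 4908 and 8085 bp, 11661 and 2927 bp, and 9524 and 4462 bp, and hairpin control lists also held a peak there. The tissue factor pathway inhibitor gene TFPI had 1368 and 528 bp, the mitochondrial enzyme gene ECHDC2 461 and 696 bp, and the calcium-binding protein gene S100P 430 and 1948 bp. These 3 genes had no PolII peak within 1 kb of the start in any list of a hairpin line. Peaks did lie in the bodies of TFPI and S100P there, over 1.07% and 31.0% in list 2 of the hairpin control line. GPR75, an orphan receptor that shares its start with a readthrough gene, had 1165 and 800 bp. Of the 58, 32 (55.2%) had a peak in both lists of the hairpin control line, which received no inhibitor, and 19 in neither. Over all genes 63.3% had a start peak in both of these lists. In both lists of the line with a hairpin against HDAC6, 22 of the 58 (37.9%) had one, against 63.5% of all genes.

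Taken over the merged regions of the 4 lists, 51 of 50157 (0.102%) were in both control lists and no inhibitor list, and 564 (1.12%) in both inhibitor lists and no control list. Of the gained regions 76.1% lay in a gene away from its start and 8.16% at a start. Their median width was 1455 bp, and 9.93% held an ATAC peak in all 3 control lists. Of the lost regions 58.8% lay outside genes and 70.6% held an ATAC peak in all 3 control lists, with a median width of 579 bp. Regions in all 4 lists numbered 12213, were 2055 bp wide at the median and lay at a start in 80.0%. Of the 37329 regions with any other pattern, 56.3% lay in a gene away from its start and 34.3% outside genes. Of these, 15.4% held an ATAC peak in all 3 control lists, and their median width was 661 bp. Such an ATAC peak lay in 84.1% of the regions in all 4 lists. Lost regions were thus mostly in open chromatin, but less often than regions in all 4 lists. Their width was near that of the other pattern. Gained regions lay in gene interiors more often than the other pattern, and few of either held an ATAC peak in each control list. With lists of equal length 85 regions were lost and 274 gained. Of the 37329 regions with another pattern, 24927 were in 1 list only.

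The peaks of the other assays were not used to choose the genes, but they helped to place the 3296 inferred starts and so their bodies. For genes with an inferred start these measures are therefore not independent. In the 1567 genes with higher PolII coverage, ATAC peaks covered between 1.87 and 2.03% of the body in the 3 control lists. In the 3 inhibitor lists they covered between 1.81 and 2.03%. In other genes with PolII at the start in all 4 lists, ATAC coverage was between 1.278 and 1.41% in the control lists. With the inhibitor it was between 1.27 and 1.48% in these other genes. ATAC coverage was thus higher in the 1567 bodies also without inhibitor. Pan-acetyl-lysine peaks covered 4.49 and 3.13% of the 1567 bodies in the 2 inhibitor lists, against 2.26 and 2.32% in the same other genes. In the control lists of that antibody coverage was 0.0402 and 0.818% against 0.0278 and 0.753%. Each of the 3 control ATAC lists marked the start in 77.9% of the 1567 genes and in 87.7% of the other genes.

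PolII was also mapped in lines with a hairpin against HDAC6 (shHDAC6) or a control hairpin (shCtrl). Mean body coverage was 3.59 and 3.29% in the 2 shCtrl lists and 2.57 and 2.49% in the 2 shHDAC6 lists, lower by a ratio of 0.735 (exact permutation p = 0.333, n = 2 each), whereas it was higher with the inhibitor; the difference between these contrasts was not tested. In the 1567 genes it was 12.7 and 11.4% with shCtrl and 8.13 and 7.98% with shHDAC6, and in the other genes 3.48 and 3.23% against 2.50 and 2.399%. In the parental line the 1567 genes, chosen on these values, had 5.31 and 4.57% in control and 17.1 and 13.7% with the inhibitor. The shCtrl values, without inhibitor, thus lay between these groups. Over all 15642 genes body coverage was lower in both shHDAC6 lists than in both shCtrl lists in 2723 (17.4%) and higher in 1603 (10.2%). Of the 1567 genes, 654 (41.7%) were lower with the hairpin, which is 24.0% of the 2723. A further 200 (12.8%) were higher with the hairpin, 12.5% of the 1603 and near the share over all genes. Genes with no coverage can be called in neither contrast, so that the shares over all genes and over the 1567 have different chances to differ. Of the 12 genes listed above, which had been chosen for high coverage, 11 were lower with the hairpin, and HERPUD1 was near 0 in each hairpin list. Across 2690 genes the inhibitor difference and the hairpin difference had a Spearman correlation of -0.243, a description over genes that share their libraries.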

How the data were processed

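ChIP-seq with the Rpb1 CTD antibody was analysed in 2 control and 2 Nexturastat A libraries. The deposited files are narrowPeak lists called for each sample. Their columns hold a score, a fold enrichment over background (a ratio), a -log10 p and a -log10 q, as deposited by the authors. In replicate 1 lists the score is 10 times the -log10 q, and in replicate 2 lists 10 times the -log10 p. Per the submitters' processing notes the tools were MACS2 2.2.7.1, Bowtie2 2.4.4, ChIPseeker 1.28.2, Trim Galore 0.6.7, deepTools 3.5.1 and SAMtools 1.13 on GRCh38 (hg38), with no roles given. Repeated intervals of a list were counted once, on chromosomes 1 to 22 and X. Genes came from the RefSeq table (GRCh38.p14). A start was listed for 15812 genes. For 3296 it was inferred as whichever end was marked more often across the 32 peak lists of all assays. For 866 both ends were used. A gene body ran from 1000 bp past the start to the end and may hold inner starts and other genes. Coverage and log2 width were fitted with limma 3.58.1 (trend) in R 4.3.3 and adjusted by Benjamini-Hochberg. Summed values were compared by exact permutation. Python 3.11.15, numpy 2.4.6, pandas 2.3.3, scipy 1.17.1, Biopython 1.88 and matplotlib 3.10.9 did the rest. The body coverage fit was tested on simulated data with less spread between lists than here. That checks the code, not whether the fit could find changes in these lists. Named were HDAC6, up to 15 starts lost and gained, the 12 largest body differences among bodies of at least 10 kb with at least 20% in both lists of the higher group, the 8 largest width differences each way, the 10 widest control start peaks and up to 3 members of each list. Other named members were chosen after their values were seen. The comparison, the 23 gene lists and the settings were chosen with earlier results of these data known. Input libraries and read counts were not used here, and some genes are not reported here.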

Additional observations from a re-analysis of the deposited data

How the results depend on the processing

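Only 2 lists a group and thresholded peaks without read depth limit every comparison, and counts in which all lists of a group must agree grow when a list is left out, since fewer lists have to agree. Covered length (4.78 to 17.04 Mb more), mean body coverage (1.15 to 3.69 points more) and coverage past the gene end (0.555 to 5.41 points more) stayed higher with the inhibitor under each alternative run. The difference in peaks per list, 2930, became -825 with a -log10 q of at least 5. That in median peak width, 132.5 bp, ranged from -8 to 273 bp on leaving out a list, and was -5.5 without control 1 and -8 without inhibitor 2. With a -log10 q of at least 5 (added after seeing the data for body coverage), 33 starts were lost and 11 gained, a reversed balance, and 816 bodies were higher. With lists of equal length, 37 starts were gained, 85 regions lost and 274 gained. Leaving out 1 list gave 33 to 273 starts lost, 139 to 323 gained, 2676 to 4661 bodies higher and 707 to 2741 lower, 2347 to 7333 start peaks wider and 702 to 4508 narrower, 367 to 6809 regions lost and 1200 to 12379 gained. In limma, which then assumes that a lone list varies like the other group, it gave 0 to 29 bodies higher (29 without control 1), 0 to 318 start peaks wider (13 without inhibitor 1, 318 without inhibitor 2) and 0 to 3 narrower. With the replicate block, and with each list centred on its median, limma called 0 bodies and 0 widths. The labels do not say that a number marks a shared batch, though deviations of same-numbered lists correlated at 0.659 for body coverage and 0.611 for log2 width. Of 118 recomputed differences of 59 named genes, 110 kept their sign and 87 moved by less than the spread between replicates (1 SD).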
